A study of Mus musculus with 16 samples.

Results

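The regions described here are 3221 stretches of the mouse genome with a Hoxb13 chromatin immunoprecipitation peak in a fixed pair of libraries. The peaks of 4 Hoxb13 libraries were merged wherever they shared at least 1 bp, which gave 17634 regions on chromosomes 1 to 19, X and Y. A region was kept when it held a peak of Paro/Neo replicate 2 (PN2) and of control replicate 1 (C1) and none of Paro/Neo replicate 1 (PN1) or control replicate 2 (C2). PN2 and C1 had the long peak lists, with 16963 and 5202 peaks, while PN1 and C2 had 821 and 1121. The regions were thus chosen by the peak calls themselves, and their presence in PN2 and C1 and their absence from PN1 and C2 is a description and was not tested.

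The study used chromatin immunoprecipitation and sequencing, which recovers and sequences DNA crosslinked to a chosen protein, on ventricles of mice at postnatal day 15. Paro/Neo mice had received paromomycin and neomycin, which are aminoglycoside antibiotics, at 150 mg/kg 2 times a day into the abdomen for 7 days from postnatal day 7. Control mice had received phosphate-buffered saline by injection over the same days. For each antibody there were 2 Paro/Neo and 2 control libraries, each with its own peak list and no read counts. The labels give no strain, sex or genotype, and they describe the ventricles of 2 hearts as duplicates for a sample, so the libraries may be technical as well as biological duplicates. Because the kept regions rest on 1 library of each treatment, and the other library of each treatment lacks a peak, they carry no comparison of Paro/Neo with control in Hoxb13 itself.

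Hoxb13 belongs to the homeobox transcription factors, which bind short AT-rich DNA words and set positional identity along the body axis. In the heart it has been studied in mice as a partner of Meis1, a homeobox factor of the TALE class, in the withdrawal of cardiomyocytes from the cell cycle after birth. Cdkn1b, which encodes the cyclin-dependent kinase inhibitor p27, and its relatives are genes through which such factors are thought to act. A promoter is the stretch around the transcription start where RNA polymerase II assembles, and in mammals most promoters of broadly expressed genes are rich in CG dinucleotides.

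Promoter sequences of the strongest kept regions are shown first, since most of the kept regions lay at transcription starts. They run from 250 bases before the start to 50 bases after it, as given by RefSeq on GRCm38.p6, the assembly whose coordinates mm10 shares, and are written along the strand of the gene. Capitals mark every GGGCGG on the gene's strand, and every CCGCCC, the same word on the other strand. The first 6 belong to the highest-ranked regions by fold enrichment among those at a promoter. The last 3 are each the strongest of a gene list, from the 3 lists with the largest shares of genes at kept regions among lists of 20 or more genes. They are Pigf (chr17:87025352-87025651, minus strand), Serpinh1 (chr7:99353190-99353489, minus strand), H2ac6 (chr13:23683910-23684209, minus strand), Morf4l2 (chrX:136741560-136741859, minus strand) and Kmt2a (chr9:44881240-44881539, minus strand). The others are Thsd1 (chr8:22227053-22227352, plus strand), Aldoa (chr7:126799205-126799504, minus strand), Mef2d (chr3:88142122-88142421, plus strand) and Tfb1m (chr17:3557706-3558005, minus strand).
Pigf: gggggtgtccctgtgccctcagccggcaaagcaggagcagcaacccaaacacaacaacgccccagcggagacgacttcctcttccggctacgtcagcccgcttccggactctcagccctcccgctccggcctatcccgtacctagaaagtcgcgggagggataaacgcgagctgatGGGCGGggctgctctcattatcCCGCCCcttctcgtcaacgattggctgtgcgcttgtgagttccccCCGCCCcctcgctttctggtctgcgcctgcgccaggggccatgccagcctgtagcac
Serpinh1: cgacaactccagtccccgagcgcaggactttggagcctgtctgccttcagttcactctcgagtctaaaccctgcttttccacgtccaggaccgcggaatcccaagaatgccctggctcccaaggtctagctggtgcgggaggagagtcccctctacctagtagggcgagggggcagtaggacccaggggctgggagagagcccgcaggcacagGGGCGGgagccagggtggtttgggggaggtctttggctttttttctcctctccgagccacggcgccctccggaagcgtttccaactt
H2ac6: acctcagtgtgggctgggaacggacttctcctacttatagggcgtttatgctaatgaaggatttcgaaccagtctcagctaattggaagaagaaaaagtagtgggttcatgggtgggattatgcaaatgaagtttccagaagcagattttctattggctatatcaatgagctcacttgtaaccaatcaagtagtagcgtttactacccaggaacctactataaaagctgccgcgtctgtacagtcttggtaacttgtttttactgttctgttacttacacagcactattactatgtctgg
Morf4l2: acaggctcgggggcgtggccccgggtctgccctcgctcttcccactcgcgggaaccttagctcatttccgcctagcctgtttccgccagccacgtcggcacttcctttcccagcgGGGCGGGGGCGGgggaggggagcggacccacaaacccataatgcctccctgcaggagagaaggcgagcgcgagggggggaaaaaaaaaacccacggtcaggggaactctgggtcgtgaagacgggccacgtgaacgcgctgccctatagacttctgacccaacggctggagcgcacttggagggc
Kmt2a: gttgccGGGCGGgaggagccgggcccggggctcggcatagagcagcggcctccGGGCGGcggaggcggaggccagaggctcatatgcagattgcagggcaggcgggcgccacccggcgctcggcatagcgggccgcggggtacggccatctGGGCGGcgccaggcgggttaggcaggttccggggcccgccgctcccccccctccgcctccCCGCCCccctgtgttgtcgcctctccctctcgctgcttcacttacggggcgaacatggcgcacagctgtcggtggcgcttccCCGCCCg
Thsd1: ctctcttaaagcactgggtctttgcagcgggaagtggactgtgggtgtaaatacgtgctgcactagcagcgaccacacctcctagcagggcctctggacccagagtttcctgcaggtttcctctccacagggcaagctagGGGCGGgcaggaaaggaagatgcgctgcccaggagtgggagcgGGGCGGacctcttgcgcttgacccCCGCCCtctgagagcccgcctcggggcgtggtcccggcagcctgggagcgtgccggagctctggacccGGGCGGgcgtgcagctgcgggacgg
Aldoa: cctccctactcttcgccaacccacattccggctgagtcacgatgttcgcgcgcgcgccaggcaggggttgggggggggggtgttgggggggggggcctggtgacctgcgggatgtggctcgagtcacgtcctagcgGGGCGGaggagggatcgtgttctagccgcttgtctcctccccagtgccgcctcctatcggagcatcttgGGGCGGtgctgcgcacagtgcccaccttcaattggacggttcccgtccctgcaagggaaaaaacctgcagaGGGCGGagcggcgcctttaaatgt
Mef2d: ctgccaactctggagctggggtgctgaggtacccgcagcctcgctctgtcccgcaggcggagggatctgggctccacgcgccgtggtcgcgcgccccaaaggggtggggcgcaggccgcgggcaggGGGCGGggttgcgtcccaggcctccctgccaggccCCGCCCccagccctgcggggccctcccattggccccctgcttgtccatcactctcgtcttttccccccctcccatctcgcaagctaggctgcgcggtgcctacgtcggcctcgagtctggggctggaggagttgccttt
Tfb1m: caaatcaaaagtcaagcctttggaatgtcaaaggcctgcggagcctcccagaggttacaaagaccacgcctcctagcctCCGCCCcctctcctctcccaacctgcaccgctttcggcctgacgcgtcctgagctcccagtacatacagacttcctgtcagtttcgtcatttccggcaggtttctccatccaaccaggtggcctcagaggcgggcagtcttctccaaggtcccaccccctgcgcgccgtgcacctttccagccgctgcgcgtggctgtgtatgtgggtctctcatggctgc
All 300 bases lay inside the kept region for 8 of these promoters, and 278 of them did for Thsd1. The GGGCGG word stood 5 times in the Kmt2a promoter, 4 times in that of Thsd1, 3 times in those of Pigf and Aldoa, and nowhere in that of H2ac6. The H2ac6 promoter had 6 CG dinucleotides and a GC content of 41.7%, against 36 and 75.7% in the Kmt2a promoter, and it alone of the 9 held TATAAA.

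Kept regions lay mainly at promoters. Of the 3221, 2405 came within 1 kb of the transcription start of a protein-coding gene, which is 74.7% (exact binomial 95% interval 73.1 to 76.2%, counting error only). For 1975 of them this was a start of the RefSeq promoter table. The other 430 were counted only through either end of a gene without an entry there. Over all 17634 merged Hoxb13 regions, counted the same way, the share within 1 kb was 42.1%, and over the 14413 regions that were not kept it was 34.8%. The start lay inside the region itself in 67.0% of kept regions, and 10.2% had the starts of 2 or more genes within 1 kb, against 26.4% and 4.42% of the regions not kept. A further 14.3% of kept regions lay elsewhere in a protein-coding gene and 11.0% outside protein-coding genes. Exon, intron and UTR could not be assigned, because the annotation used here gives gene spans and starts alone.

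Regions called in both long lists lay at starts more often than regions called in either of them alone. Regions called in PN2, C1 and 1 of the short lists came within 1 kb of a start in 79.1% of 661 cases (75.8 to 82.2%), and regions called in all 4 lists in 72.2% of 449 (67.8 to 76.3%), so that the interval of the kept regions overlapped both. Regions of PN2 alone did so in 30.8% of 12540 (30.0 to 31.6%) and regions of C1 alone in 42.0% of 586 (37.9 to 46.1%). Regions of one genome are not replicates, so the shares are given with counting intervals and without a test.

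**Figure D1:**
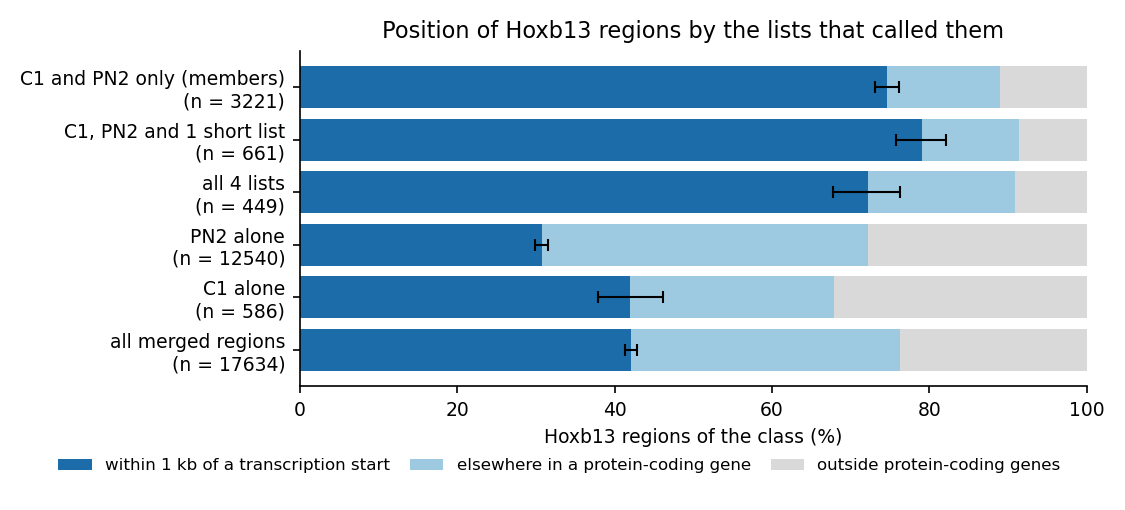
Position of merged Hoxb13 regions by the lists that called them. Bars show the percent of each class within 1 kb of a protein-coding transcription start (dark blue, with exact 95% binomial intervals), elsewhere in a gene (light blue) and outside genes (grey); the regions of PN2 and C1 only reach 74.7%, against 30.8% for PN2 alone.

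The share exceeded that of PN2-alone regions in each of 3 classes of width and 4 classes of fold. Kept regions were wider, with a median of 729 bp (quartiles 503 and 1164 bp) against 422 bp for PN2 alone (266 and 691 bp). Among regions of up to 500 bp, 74.9% of 793 kept regions and 30.2% of 7364 PN2-alone regions came within 1 kb of a start. Above 500 and up to 1000 bp the shares were 80.4% of 1392 and 32.8% of 3723. Above 1000 bp they were 66.8% of 1036 and 28.4% of 1453. By percentile of fold within the PN2 list, the share of kept regions was 82.8% up to percentile 25, 76.8% from 25 to 50, 73.3% from 50 to 75 and 70.7% above 75. For PN2-alone regions the same shares were 37.8%, 25.3%, 28.5% and 31.9%.

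Kept regions near a start were centred on it, as were the PN2-alone regions near a start. Where the RefSeq promoter table gave a stranded start, 1932 kept regions had their centre within 1 kb of it, 59.98% of all kept regions against 23.7% of PN2-alone regions. The median centre of these lay 12.5 bp downstream of the start (quartiles −115 and 141 bp relative to the start, negative being upstream). Downstream centres made up 52.5% of them. PN2-alone regions with their centre within 1 kb had a median centre at 13 bp, with quartiles −92 and 132 bp and 53.7% downstream. Regions called in all 4 lists had a median centre at −43.5 bp, with quartiles −218 and 154 bp. In bins of 250 bp, 24.2% of kept regions were centred just downstream of a start and 21.9% just upstream, against 9.89% and 8.83% of PN2-alone regions.

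**Figure D2:**
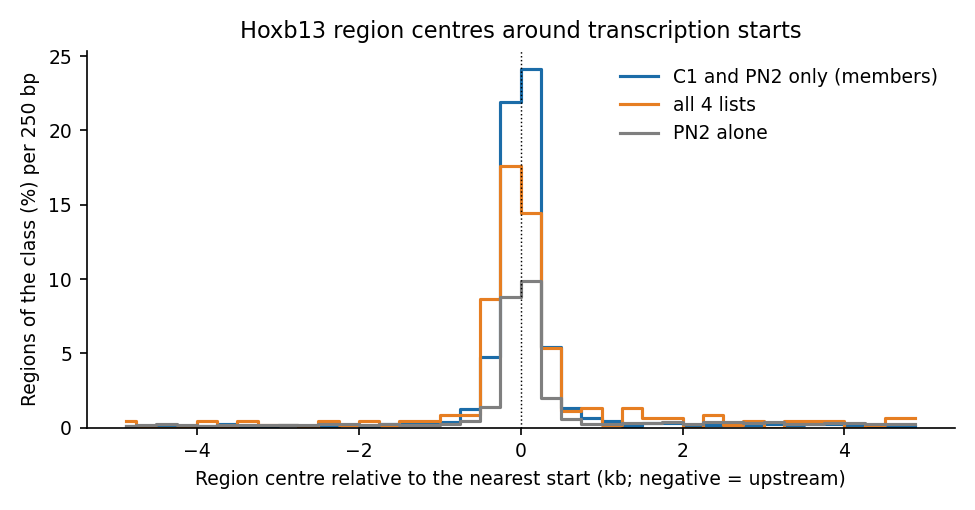
Centres of Hoxb13 regions relative to the nearest stranded transcription start. The y axis gives the percent of all regions of a class per 250 bp, for the regions of PN2 and C1 only (blue), of all 4 lists (orange) and of PN2 alone (grey); the blue line peaks at 24.2% just downstream of the start.

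Chromosomes contributed kept regions in near proportion to their Hoxb13 regions. Kept regions were 15.3 to 20.6% of the merged regions of each autosome and of X, and Y had no Hoxb13 region. Per 100 protein-coding genes, X had 4.87 kept regions, the lowest value apart from Y, and the autosomes had between 11.3 and 19.4.

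Fold enrichment placed the kept regions in the middle of their lists. The deposited fold, the caller's enrichment of a peak over its local background, had a median of 3.28 in PN2 (quartiles 2.96 and 3.64, range 1.66 to 6.82) and of 3.21 in C1 (3.01 and 3.49, range 1.62 to 6.50). Folds rank peaks within their own list, where the median kept region stood at percentile 65.5 of PN2 and percentile 43.6 of C1. Regions called in all 4 lists stood at percentile 97.0 of PN2 and 92.4 of C1, with median folds of 4.56 and 4.26. Regions of PN2 alone stood at percentile 43.5 of PN2 with a median fold of 3.04. The median −log10 q, the caller's significance after its correction, was 3.70 in PN2 and 2.13 in C1 for kept regions. Kept regions supplied 205 of the 821 strongest peaks of PN2, beside 18.99% of all PN2 peaks. In C1 they supplied 301 of the 821 strongest peaks, beside 63.0% of all C1 peaks. Here 821 is the length of the shortest Hoxb13 list. The rule itself leaves out regions that were also called in a short list.

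The threshold of the rule was that of the peak caller, and each Hoxb13 list began at a −log10 q between 1.00 and 1.05, so the weakest peaks on both sides lie close together by construction. The weakest kept peaks had a −log10 q of 1.04 in PN2, at Abra, which encodes an actin-binding activator of serum response factor signalling, and of 1.00 in C1, at 4931428F04Rik. The weakest peaks that kept a region of both long lists out had a −log10 q of 1.05 in PN1, at Pafah1b2, and of 1.02 in C2, at Ppp4c. Away from the minimum the excluded regions were stronger, with a median −log10 q in PN2 of 9.94 for regions of all 4 lists and 5.69 for those of both long lists and 1 short list, against 3.70 for kept regions. Sequencing depth is unknown, so a missing peak in PN1 or C2 cannot be told apart from too few reads to call one.

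Ranks in the 2 lists were loosely related. Over the 3221 regions the folds in PN2 and C1 had a Spearman correlation of 0.263 and a Pearson correlation of 0.316, as a description over regions that share libraries and peak caller, each list being cut off below by the caller. The percentile was higher in PN2 for 2115 of them. Percentiles are ranks within lists of unlike length, so this count also depends on the other peaks of each list. PN2 peaks were wider than the C1 peaks of the same region in 2706, with medians of 662 and 371 bp. In PN2 each kept region held a single peak, while in C1 54 of them held 2 or more. Kept regions held 18.99% of the PN2 peaks and 63.0% of the C1 peaks.

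**Figure D3:**
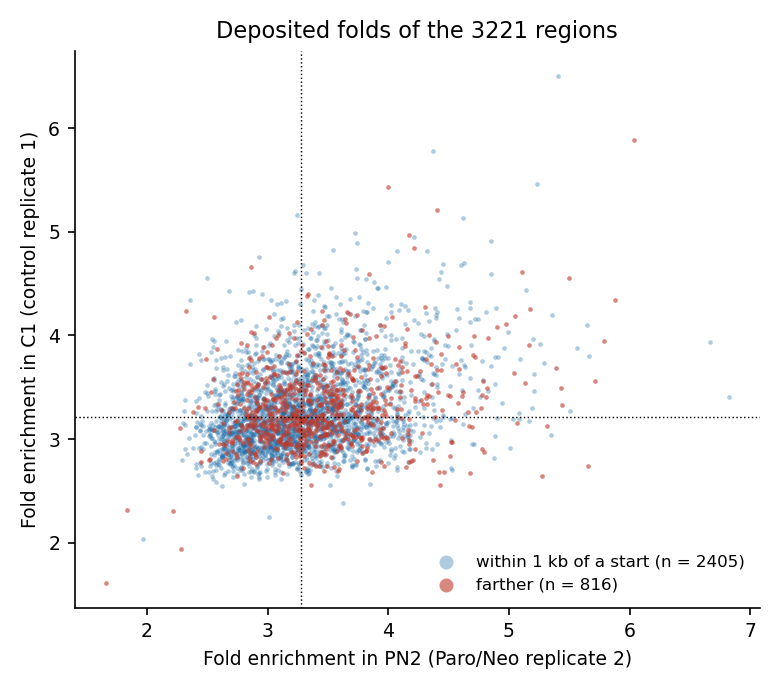
Deposited fold enrichment of the 3221 regions, in PN2 (x axis) and in C1 (y axis), for 2405 regions within 1 kb of a start (blue) and 816 farther away (red). Dotted lines mark the medians, 3.28 in PN2 and 3.21 in C1, and the points of both colours overlap.

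The highest-ranked kept region lay at the shared start of Pigf and Cript (chr17:87024936-87025719). Pigf acts in the synthesis of glycosylphosphatidylinositol anchors of surface proteins, as does Piga, which also ranked among the first 20. The region had folds of 5.41 in PN2 and 6.50 in C1, at percentiles 99.0 and 99.1. Next was a region inside Rnf123, a ubiquitin ligase gene, 5930 bp from its start (chr9:108072690-108073371), with folds of 6.03 in PN2 and 5.89 in C1. Serpinh1, which encodes a collagen chaperone of the endoplasmic reticulum, had 5.23 in PN2 and 5.46 in C1 (chr7:99352314-99353491). A region covering the histone genes H2ac6 and H2bc4 had 4.85 in PN2 and 4.91 in C1 (chr13:23683845-23684892), and reads there may be shared with near-identical histone copies. Morf4l2, a subunit of histone acetyltransferase complexes, had 4.62 and 5.13 in PN2 and C1 (chrX:136741237-136742141). Kmt2a, a histone H3 lysine methyltransferase, had 4.37 and 5.78 in PN2 and C1 (chr9:44880984-44882091).

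Of the 20 highest-ranked regions, 15 came within 1 kb of a start. Besides those above they included Mapk7, the kinase ERK5, with folds of 4.63 in PN2 and 4.70 in C1, Pex7, a peroxisomal import receptor, with 4.61 and 4.68, and Sdc4, the proteoglycan syndecan-4, with 5.14 and 4.43. Arpc5l, of the actin-nucleating Arp2/3 complex, had 4.46 in PN2 and 4.69 in C1, and Prkag1, a regulatory subunit of AMP-activated kinase, had 4.22 and 4.95. The remaining ones at starts were Thsd1, Leng1, Smc5, Piga and D2hgdh. The 5 away from starts were at Rnf123, Auts2, Ppp2r3c, Ndufv3 and Josd2. The Auts2 region lay inside the gene, 147625 bp from its start, and the Ndufv3 region lay past the gene, 15687 bp from its start.

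Transcription starts of 2711 of 21887 protein-coding genes had a kept region within 1 kb, which is 12.4%. Within 1 kb of the start, 7917 genes (36.2%) had any merged Hoxb13 region, so kept regions reached 34.2% of the genes that Hoxb13 regions reached. Counted over the gene body with 5 kb on each side, 3811 genes (17.4%) held a kept region. Functions were read from 34 gene lists, each set beside the 12.4% over all genes, without a test. Of the 22 lists with 20 or more genes, 12 had at least 2 times the share over all genes (24.8%) and 2 lay below 12.4%. Which lists reached 2 times the share over all genes depended on the setting. Only 4 of the 12 did so under each of 3 other settings as well, namely glycolysis, the tricarboxylic acid cycle, fatty acid oxidation and cardiac transcription factors. With PN2 cut to the length of C1, where 5.36% of all genes had a kept region at the start, 6 of the 12 no longer did. These were mitochondrial import at 7.89%, oxidative phosphorylation at 8.86%, cytosolic ribosomal proteins at 9.09%, the spliceosome at 8.00%, autophagy and lysosome genes at 3.57% and immediate early genes at 4.35%. In their place 4 others did, namely RNA polymerase II with Mediator, chaperones, the proteasome and cell cycle drivers. With a −log10 q of at least 2, calcium handling, endothelial markers, immediate early genes and oxidative phosphorylation no longer did and 5 others did. The 4395 protein-coding genes without an entry in the promoter table were counted through either end of the gene, whichever a region reached, and list members counted this way are named below.

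Genes of energy metabolism had some of the largest shares, and most of them had some Hoxb13 region at the start. The share with any Hoxb13 region was 86.4% in glycolysis, 86.4% in the tricarboxylic acid cycle and 93.3% in fatty acid oxidation. Over all genes it was 36.2%. Of the genes with any Hoxb13 region, kept regions reached 52.6%, 42.1% and 32.1% in these lists, against 34.2% over all genes. Glycolysis, the breakdown of glucose to pyruvate, had kept regions at the start of 10 of 22 genes (45.5%): Aldoa, Pgk1, Eno1, Pgam2, Eno3, Slc2a1, Gapdh, Ldha, Gpi1 and Pfkfb2. Aldoa, fructose-bisphosphate aldolase, had folds of 3.76 in PN2 and 3.69 in C1 over 2527 bp (chr7:126797471-126799997), and Pgk1, phosphoglycerate kinase, 3.62 and 3.58. The glycolysis share was 18.2% with a −log10 q of at least 2 and 22.7% with PN2 cut to the length of C1, against 8.11% and 5.36% over all genes. The median over the 10 genes was 3.23 in PN2 and 3.13 in C1, against 3.25 and 3.19 over the 2711 genes, taking the strongest kept region of each gene. The tricarboxylic acid cycle had 8 of 22 (36.4%), with Pdhb, a subunit of pyruvate dehydrogenase, at 3.61 in PN2 and 4.07 in C1, and Mdh1, malate dehydrogenase, at 3.52 and 3.82. Fatty acid oxidation, the main fuel route of the adult heart, had 9 of 30 (30.0%). Its strongest, Etfdh, which passes electrons from fatty acid oxidation to ubiquinone, had 4.75 in PN2 and 4.16 in C1, and Hadha and Hadhb, the trifunctional protein, shared 1 region with 4.12 and 3.17. Lpl, Acaa2 and Ppargc1b of this list were counted through a gene end. The HIF and hypoxia list had 4 of 12 genes (33.3%), namely Egln1, Egln2, Vegfa and Bnip3.

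Mitochondrial genes outside these pathways were reached unevenly. Mitochondrial import and protein quality control had 14 of 38 genes (36.8%), among them Tomm20, Tomm22 and Tomm70a of the outer membrane translocase and Hspd1 and Hspe1, the matrix chaperonin, which share 1 region with folds of 3.16 in PN2 and 3.95 in C1. Tfb1m, which modifies the small mitochondrial ribosomal RNA, had the highest rank of this list with 4.68 in PN2 and 3.59 in C1 (chr17:3557306-3558040). Oxidative phosphorylation had 23 of 79 (29.1%), spread over NADH dehydrogenase, succinate dehydrogenase, cytochrome c reductase, cytochrome c oxidase and ATP synthase. Any Hoxb13 region lay at 84.8% of its starts, and kept regions reached 34.3% of those genes, against 34.2% over all genes. Ndufa4 had 4.88 in PN2 and 3.79 in C1, and Cox8a had 3.72 and 4.19. Mitochondrial ribosomal proteins had 14 of 77 (18.2%), closer to the share over all genes.

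Cytosolic ribosomal proteins, which make up the ribosome, had 27 of 77 genes (35.1%). Any Hoxb13 region lay at 92.2% of their starts, and kept regions reached 38.0% of those genes. The strongest by mean percentile were Rps14, Rpl18, Rps2 and Rpl3, with folds of 3.08 to 3.34 in PN2 and 3.34 to 3.84 in C1. Reads at ribosomal protein genes can be shared with processed copies elsewhere, and 9 of the 27 were counted through a gene end, Rpl3 and Rps14 among them. Translation initiation and elongation factors had 9 of 39 (23.1%), the spliceosome 15 of 50 (30.0%), RNA polymerase II with Mediator and the general factors 14 of 64 (21.9%), and the proteasome 7 of 35 (20.0%). Gtf2a2, a subunit of the general factor TFIIA, had 5.26 in PN2 and 3.91 in C1, and Med19 of the Mediator complex had 3.88 and 4.52. Psmb3 of the proteasome core had 4.39 in PN2 and 4.27 in C1. Chaperones and heat shock proteins had 8 of 37 (21.6%), led by Hspb2, a small heat shock protein of muscle, with 4.52 in PN2 and 3.70 in C1 and counted through a gene end. Autophagy and lysosome genes had 8 of 28 (28.6%), led by Gabarap, an autophagosome protein, with 4.36 in PN2 and 3.41 in C1.

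Transcription factors of the heart had 9 of 22 genes (40.9%), namely Gata6, Tbx20, Mef2d, Srf, Mrtfa, Foxo3, Foxo1, Zfpm2 and Nfatc4. Any Hoxb13 region lay at 86.4% of the starts of the list, against 36.2% over all genes. Kept regions reached 47.4% of those genes, against 34.2% over all genes. Taking the strongest kept region of each gene, the median fold was 3.02 in PN2 and 3.09 in C1. Over all 2711 genes these medians were 3.25 and 3.19. Mef2d, a factor of muscle differentiation, had 3.97 in PN2 and 3.41 in C1 over 1703 bp (chr3:88141886-88143588). Foxo3, a factor downstream of insulin signalling, had 3.90 and 3.09 in PN2 and C1. Tbx20, a T-box factor of the heart, had the lowest C1 value of the list with 2.71, against 2.77 in PN2. Srf had the lowest PN2 value with 2.42, against 3.17 in C1. Gata6 and Zfpm2 were counted through a gene end. The share of the list was 22.7% with a −log10 q of at least 2, against 8.11% over all genes. With PN2 cut to the length of C1 it was 13.6%, against 5.36%. A region called in all 4 Hoxb13 lists lay at the start of 1 of the 22 genes, against 371 of 21887 over all protein-coding genes.

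Among structural genes of the myocyte, the lists differed. Sarcomere genes had kept regions at 4 of 32 starts (12.5%), a share near the 12.4% over all genes. By contrast, 26 of 32 (81.2%) had some Hoxb13 region there, against 36.2% of all genes. A region called in all 4 lists lay at 6 of the 32 starts, against 371 of 21887 over all genes. Kept regions thus reached 15.4% of the sarcomere genes with any Hoxb13 region, against 34.2% over all genes. Counted over the gene body with 5 kb on each side, 11 of 32 sarcomere genes (34.4%) held a kept region, against 17.4% of all genes. With PN2 cut to the length of C1, 9.38% had one at the start, against 5.36% of all genes. The 4 at starts were Ttn, the giant spring protein titin, Tnnt2, cardiac troponin T, Ldb3, a Z-disc protein, and Nexn, an actin-binding Z-disc protein counted through a gene end. Ttn had 3.75 in PN2 and 3.43 in C1 (chr2:76979911-76983184), and Tnnt2 had 3.25 and 3.69 (chr1:135835607-135836569). Calcium handling and conduction genes had 9 of 32 (28.1%), among them Ryr2, Jph2, Cacna2d1, Camk2d and Kcnh2. Kcnh2, a potassium channel of repolarisation, had 4.24 in PN2 and 3.25 in C1. Calm2 and Asph were among those counted through a gene end. Intercalated disc genes had 4 of 15 (26.7%), Jup, Ctnna1, Vcl and Tjp1, and fetal and load-responsive genes 3 of 14 (21.4%), Fhl2, Ccn2 and Atf5. In these lists any Hoxb13 region lay at 66.7% and 42.9% of starts, and kept regions reached 40% and 50% of those genes.

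Signalling and growth genes varied. The Hippo pathway, which restrains cardiomyocyte growth through phosphorylation of Yap1, had 7 of 19 genes (36.8%), comprising Yap1 itself, its DNA-binding partner Tead4, the kinases Lats1, Lats2 and Stk3, the adaptor Sav1, and Amotl2. Lats2 had 3.42 in PN2 and 3.72 in C1, and Yap1 had 2.75 and 3.35. Tead4 and Stk3 were counted through a gene end. Any Hoxb13 region lay at 84.2% of the starts of this list, against 36.2% over all genes. Kept regions reached 43.8% of those genes, against 34.2% over all genes. The Hippo share was 36.8% with a −log10 q of at least 2, against 8.11% over all genes. With PN2 cut to the length of C1 it was 10.5%, against 5.36%. Immediate early genes, which respond within minutes to a stimulus, had 8 of 23 (34.8%): Fos, Egr1, Atf3, Nr4a1, Nr4a3, Ier2, Ier5 and Btg2, with Egr1 and Ier2 counted through a gene end. Their median fold was 2.87 in PN2 and 3.07 in C1, both below the medians of 3.25 and 3.19 over all genes with a kept region at the start. Regions called in all 4 lists lay at the start of 7 of the 23, against 371 of 21887 over all genes. A gene could be counted for both kinds of region. With a −log10 q of at least 2 the share of immediate early genes was 8.70%, against 8.11% over all genes, and with PN2 cut to the length of C1 it was 4.35%, against 5.36%. ErbB, IGF and insulin signalling had 5 of 23 (21.7%), among them Irs1, an adaptor of the insulin receptor, and Rheb, an activator of mTOR. Any Hoxb13 region lay at 65.2% of the starts of this list, and kept regions reached 33.3% of those genes. Its share was 17.4% with a −log10 q of at least 2, and 4.35% with PN2 cut, against 8.11% and 5.36% over all genes. Calcineurin, Rcan and NFAT had 1 of 13 (7.69%), Nfatc4.

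Drivers of the cell cycle had 5 of 37 (13.5%), namely Cdc25a, Cdc25c, Mcm7, Pcna and Aurka. With PN2 cut to the length of C1 they had 10.8%, against 5.36% of all genes. CDK inhibitors and pocket proteins had 2 of 10 (20.0%), the same share with PN2 cut, and 4 of 10 over the gene body with 5 kb on each side. Cdkn2c, the inhibitor p18, had 4.40 in PN2 and 4.23 in C1 over 861 bp (chr4:109666302-109667162). Cdkn1b had 2 kept regions and no other Hoxb13 region. The first, at the start (chr6:134919923-134921305), had 3.55 in PN2 and 2.89 in C1, and held a Meis1 peak in 3 of 4 Meis1 libraries. Its C1 peak was weak, at percentile 10.1 of C1 with a −log10 q of 1.52. With a −log10 q of at least 2, 0% of the genes under study had a kept region at the start, so this region was lost. The second, 7856 bp from the start and past the gene (chr6:134928257-134928843), had 2.99 in PN2 and 3.69 in C1 and no Meis1 peak. Of the other genes under study, Hoxb13, Cdkn2a and Cdkn2b had no Hoxb13 region within 5 kb, while Meis1 had 3, Meis2 1, Cdkn1a 3, Ppp3ca 1 and Rcan1 5, all in PN2 alone. TALE homeobox genes had 2 of 11 (18.2%), Pbx3 and Pknox1, which encode Meis1 partner proteins or relatives and were both counted through a gene end. Hox genes had 0 of 39, and 0 of 39 had any Hoxb13 region at the start.

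Markers of cell types were counted in the same way, in short lists of 10 to 33 genes, and the cell make-up of the tissue was not tested. Endothelial markers had 5 of 20 genes (25%), Cdh5, Flt1, Egfl7, Nos3 and Mmrn2, with Flt1, a VEGF receptor, at 5.08 in PN2 and 3.26 in C1. Cdh5, Nos3 and Mmrn2 were counted through a gene end. Smooth muscle and pericyte markers had 1 of 11 (9.09%), Acta2. Fibroblast markers had 0 of 17, macrophage and leukocyte markers 0 of 17 and erythroid markers 0 of 10. Genes of other tissues had 1 of 33 (3.03%), Sftpc, whose region it shares with Bmp1 and which was counted through a gene end. Any Hoxb13 region lay at the start of 13 of 20 endothelial and 5 of 11 smooth muscle and pericyte genes. The same held for 3 of 17 fibroblast, 1 of 17 leukocyte, 0 of 10 erythroid and 2 of 33 other-tissue genes. Whether cells other than cardiomyocytes supplied the endothelial regions was not tested.

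**Figure D4:**
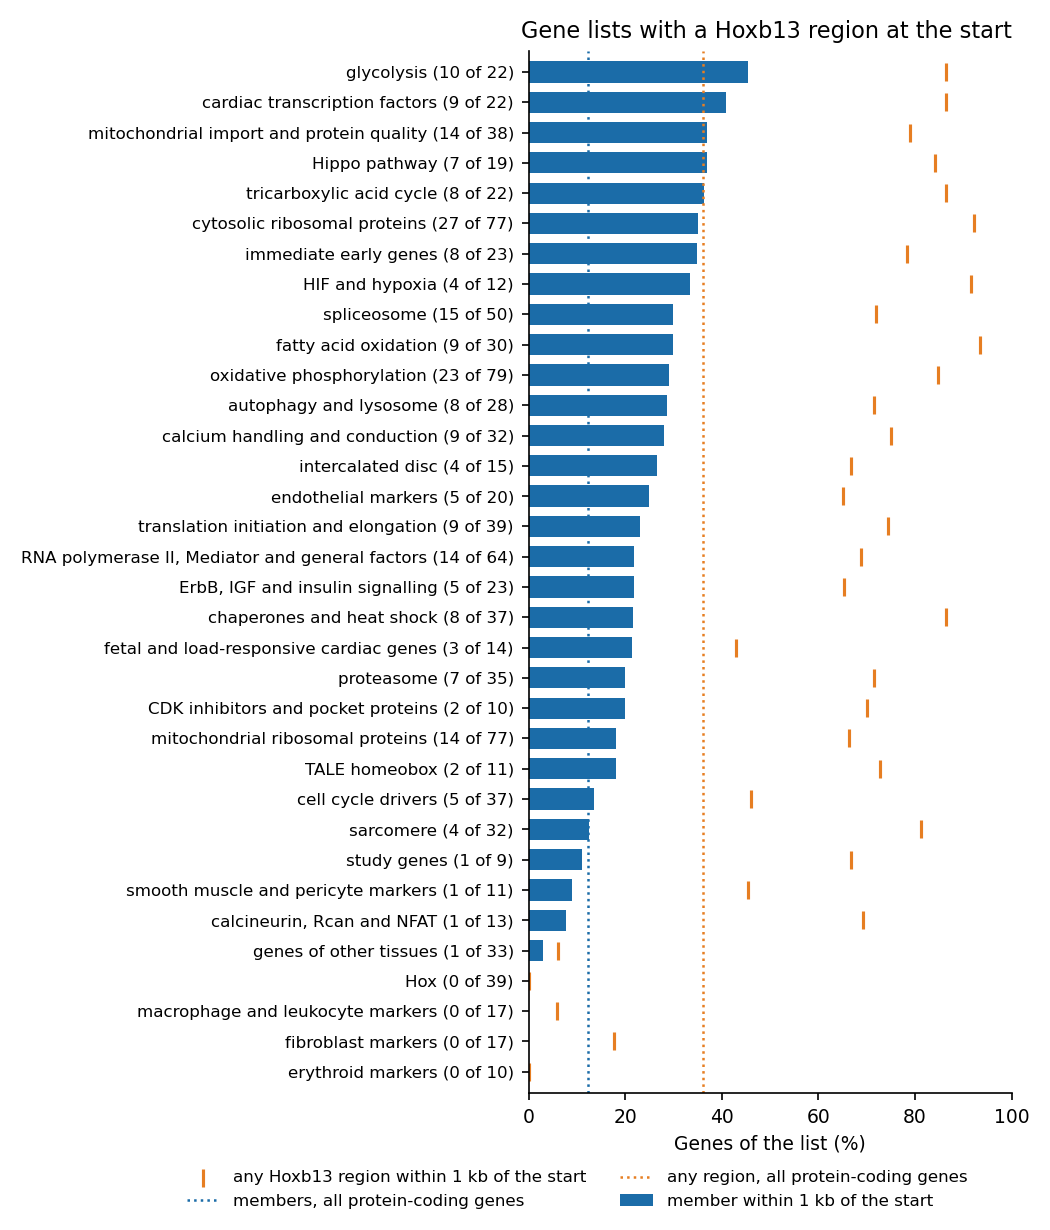
Share of each gene list with a Hoxb13 region within 1 kb of the start. Bars give kept regions (in brackets, genes reached of genes listed), orange ticks any merged Hoxb13 region, and dotted lines the shares over all protein-coding genes, 12.4% and 36.2%; glycolysis reaches 45.5% and sarcomere 12.5%.

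The 5 widest kept regions lay in or at Ryr2, Ldb3, Fhl2 and Ppargc1b. The widest spanned 15890 bp inside Ryr2, the calcium release channel of the sarcoplasmic reticulum (chr13:12065753-12081642), with folds of 3.37 in PN2 and 3.18 in C1. Ryr2, whose gene is 553847 bp long, held 10 kept regions, more than any other gene, with widths of 710 to 15890 bp, folds of 3.16 to 3.69 in PN2 and 3.16 to 3.50 in C1. The third of the 5 widest was also in Ryr2 with 7946 bp. Ldb3 had 9238 bp over its start (chr14:34581031-34590268), Fhl2, a LIM protein of the sarcomere, 7665 bp (chr1:43189830-43197494), and Ppargc1b, a coactivator of mitochondrial genes, 7291 bp. The genes after Ryr2 by number were Abcc8, a subunit of the ATP-sensitive potassium channel, Ehd1, a membrane trafficking gene, and the neighbours Inpp5k and Myo1c, with 4 each, 3 of those of Inpp5k and Myo1c being the same.

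Kept regions away from starts were somewhat wider and ranked slightly higher. The 816 regions farther than 1 kb had a median width of 862.5 bp against 704 bp for the 2405 near starts, and a median fold of 3.35 against 3.25 in PN2 and of 3.24 against 3.20 in C1. Of them 146, or 4.53% of all kept regions, lay over 50 kb from any start. The most isolated lay 576872 bp from the nearest gene, Mctp2 (chr7:71500742-71500955), with folds of 3.18 in PN2 and 3.72 in C1. A region 502200 bp from Hsf2 (chr10:56980844-56981566) had 3.20 and 2.95 in PN2 and C1 and held a Meis1 peak in all 4 Meis1 libraries.

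Promoters under kept regions were rich in CG and poor in AT words. RefSeq gives 2468 promoter windows of 300 bases, of 2134 genes, that overlapped a kept region. Their median GC content was 65.0% (quartiles 59.3 and 70.3%) and their median number of CG dinucleotides 26, against 56.3% and 13 over all 21238 windows and 64.0% and 24 over the 6922 windows under any Hoxb13 region. GGGCGG, a word bound by Sp factors, stood on either strand in 77.3% of windows under kept regions, 69.1% of windows under PN2-alone regions, 81.4% under regions of all 4 lists and 46.2% of all windows. CCAAT, the word of NF-Y, stood in 42.0% under kept regions, 53.8% under regions of all 4 lists and 38.2% of all windows.

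Under kept regions, short words of the homeobox factors were less frequent than over all promoters, and a longer joint word was slightly more frequent. Windows under any Hoxb13 region had similar shares. TTTAT, the core of the posterior Hox word, stood in 17.8% of windows under kept regions and 19.8% under any Hoxb13 region. It stood in 22.0% under PN2-alone regions, 21.0% under regions of all 4 lists and 34.95% of all windows. CAATAAA, which contains the reverse of TTTAT, stood in 2.15% under kept regions, 2.21% under any, 3.90% under all 4 lists and 3.85% of all windows. For TGACAG, the Meis word, these shares were 15.9%, 15.3%, 19.5% and 18.7%. For TGATTGAC, a joint word of Pbx and Hox or Meis, they were 1.09%, 0.953%, 1.80% and 0.786%. TATAAA, which also contains the reverse of TTTAT, stood in 4.38% under kept regions and 12.6% of all windows. All words were searched on both strands. They are matches of letters in a 300-base window and not binding sites, and regions outside promoter windows could not be searched because no genome sequence was used here.

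MicroRNA genes came within reach of few kept regions. Of 1005 hairpins given by RefSeq, 41 (4.08%) had a kept region within 1 kb, against 122 (12.1%) with any Hoxb13 region, and 23 overlapped the kept region. For 25 of the 41 the same region also lay within 1 kb of a protein-coding start. The mature microRNAs below were chosen after their values were seen, because they are well studied in heart or vessels. They are printed with bases 2 to 8, the seed that pairs with targets, in capitals.
mmu-let-7b-5p: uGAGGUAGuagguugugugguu
mmu-let-7c-5p: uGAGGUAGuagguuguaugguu
mmu-miR-126a-3p: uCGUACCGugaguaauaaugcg
mmu-miR-210-3p: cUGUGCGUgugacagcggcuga
mmu-miR-214-3p: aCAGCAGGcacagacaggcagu
mmu-miR-322-5p: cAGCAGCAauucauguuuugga
mmu-miR-503-5p: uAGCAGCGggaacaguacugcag
The let-7 members share the seed GAGGUAG, and their hairpins (chr15:85707319-85707403 and chr15:85706603-85706697, plus strand) lie 172 and 878 bp from 1 kept region with folds of 3.23 in PN2 and 2.82 in C1. miR-126a, an endothelial microRNA in an intron of Egfl7, lies inside a kept region of 3616 bp (hairpin chr2:26591357-26591429, plus strand) with 3.27 in PN2 and 2.79 in C1. miR-210, induced in low oxygen, lies 255 bp from a region with 4.17 and 3.05 in PN2 and C1 (hairpin chr7:141221384-141221493, minus strand). miR-214 lies inside Dnm3, 126 bp from a region with 3.36 in PN2 and 3.24 in C1 (hairpin chr1:162223368-162223477, plus strand). miR-322 and miR-503, whose seeds AGCAGCA and AGCAGCG differ at the last base, lie 722 and 451 bp from 1 region with 4.30 in PN2 and 4.27 in C1, the strongest of these (hairpins chrX:53054255-53054349 and chrX:53053984-53054054, minus strand). That region lay 60872 bp from the nearest protein-coding start, Plac1.

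Meis1 peaks, which the rule did not use, stood in a small share of kept regions. Of the 3221, 246 held a Meis1 peak in at least 1 of 4 Meis1 libraries, which is 7.64% (6.74 to 8.61%), against 8.44% of all merged Hoxb13 regions and 8.62% of those not kept (8.16 to 9.09%). Regions called in all 4 Hoxb13 lists had one in 20.3% (16.6 to 24.3%). These were wider, with a median of 1453 bp, against 729 bp for kept regions and 446 bp for those not kept. A wider region has more room for an overlap, and none of these Meis1 shares was adjusted for width. Near starts the share was 6.36% of kept regions and 5.36% of the others, and farther away 11.4% and 10.4%, so within each position kept and other regions had overlapping intervals (5.42 to 7.41% and 4.75 to 6.02% near starts, 9.30 to 13.8% and 9.75 to 11.0% farther away). The Meis1 antibody is labelled as recognising Meis1/2, and the antibodies form separate sets of libraries.

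By Meis1 library, 68 and 61 kept regions held a peak in Paro/Neo replicates 1 and 2, against 180 and 162 in control replicates 1 and 2. As percent of kept regions these were 2.11 and 1.89 in Paro/Neo, mean 2.00 ± 0.154 (SD, n = 2), against 5.59 and 5.03 in control, mean 5.31 ± 0.395 (SD, n = 2). The Paro/Neo values lay below the control values without overlap, with a log2 difference of −1.41, and the exact two-sided permutation test gave p = 0.3333, the smallest that 6 orders of 4 libraries allow. The other Hoxb13 regions had 3.02 and 2.45% in Paro/Neo and 6.51 and 6.29% in control, and the difference of the kept regions relative to them was −0.17 on the log2 scale (exact permutation p = 0.3333). The Meis1 lists held 1541 and 1025 peaks in Paro/Neo against 3529 and 3176 in control. With every list held to 1025 peaks, the strongest of each, kept regions had shares of 1.55 and 1.89% in Paro/Neo and 1.49 and 1.49% in control, and the log2 difference turned to 0.20 (exact permutation p = 0.3333). For replicate 2 of Meis1, the letter in each list's name is that of the opposite group, although the labels were followed here. With both lists exchanged the log2 difference was 0.0024 (exact permutation p = 1).

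**Figure D5:**
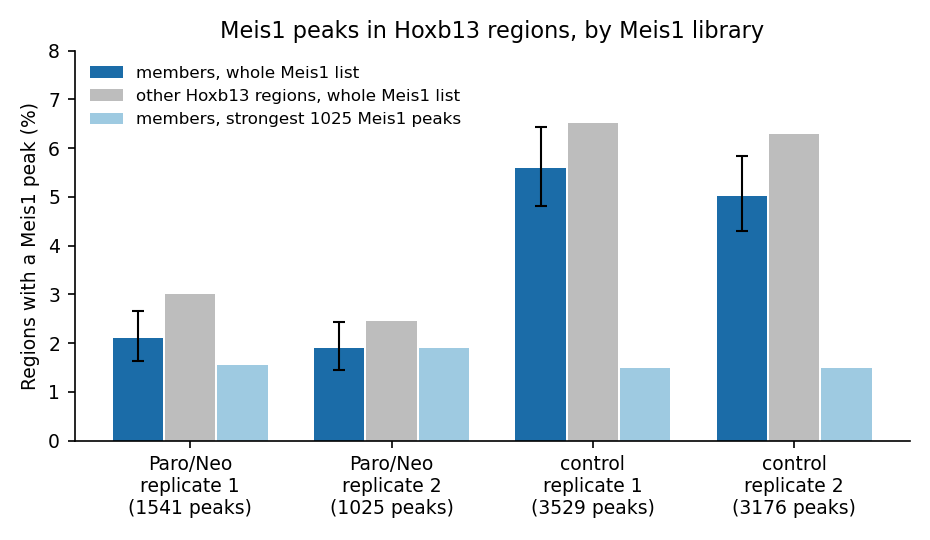
Percent of Hoxb13 regions with a Meis1 peak, by Meis1 library, with Paro/Neo on the left and control on the right. Dark blue bars are the 3221 regions of PN2 and C1 only (exact 95% binomial intervals), grey bars all other Hoxb13 regions, and light blue bars the 3221 regions with each Meis1 list cut to its 1025 strongest peaks, where the libraries lie between 1.49 and 1.89%.

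In all 4 Meis1 libraries a peak stood in 31 kept regions, 0.962% (0.655 to 1.36%), against 1.50% of all merged Hoxb13 regions. The strongest by Hoxb13 fold lay in Josd2, a deubiquitinase gene, over 4202 bp (chr7:44471337-44475538), with Hoxb13 folds of 5.18 in PN2 and 4.26 in C1. Frmd4a held 2, one at its start with 4.83 in PN2 and 3.46 in C1 and one 41777 bp from it with 4.90 and 4.08. Jarid2, an accessory factor of Polycomb repressive complex 2 needed for heart development, had 3.91 and 3.86 in PN2 and C1 over its start (chr13:44730106-44731478). Pknox1, which encodes the TALE factor Prep1, had 3.96 and 3.41 over 2148 bp (chr17:31563553-31565700). Rbm24, a splicing regulator of heart and skeletal muscle, had a region of 6842 bp inside the gene, with 3.75 and 3.46 in PN2 and C1. Kcnj5, a subunit of the acetylcholine-gated potassium channel of the heart, had one 29930 bp from its start with 4.78 and 3.43. Others lay at Bahcc1 and at Fam219a with Dnaic1.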

How the data were processed

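Each Hoxb13 and Meis1 library had a deposited broadPeak list; the 8 input libraries were not used here. Bowtie2, FastQC 0.11.5, MACS2, HOMER and Picard 1.127 are named, with mm10, per the submitters' processing notes, which give no order, options or other versions here. Per peak the authors deposited a fold (a ratio over local background), −log10 p and −log10 q, and a score of 10 times the −log10 q. Lists were made per library, depth is unknown, and folds were ranked within a list (percentile 100 is strongest).

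Groups followed the labels. Regions came from merging peaks that share 1 bp or more. Gene spans, starts and sequences were RefSeq's for GRCm38.p6; 17492 of 21887 protein-coding genes had a stranded start, and either end stood in for the rest. The lists hold 1017 entries, 4 matched by an older symbol. The regions and gene lists were chosen with earlier results of these data known. Named genes were the 20 highest by mean fold percentile, up to 4 per list by that percentile with whole lists where few genes were reached, the study's genes, up to 10 regions with Meis1 peaks in all 4 libraries, the 5 widest, the genes with most regions and the most isolated regions; other genes of a list are named as its members. Intervals are exact Clopper-Pearson at 95%. Python 3.11.15, pandas 2.3.3 and scipy 1.17.1 were used, and merging and overlap were tested on simulated peaks. Some genes of the lists are not reported here.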

Additional observations from a re-analysis of the deposited data

How the results depend on the processing

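Changes of the rule moved both the number of regions and their share at promoters. Requiring −log10 q of 2 gave 1949 regions with a promoter share of 79.8%. Peaks covering 50% of a region gave a share of 78.9%. Cutting PN2 to the length of C1 gave 1480 regions, a promoter share of 71.4% and a Meis1 share of 8.99%. Dropping the condition on each Hoxb13 library in turn gave 3436 to 15764 regions, promoter shares of 39.7 to 75.3%, Meis1 shares of 5.61 to 8.28% and 2892 to 6745 genes. The promoter share of 66.2% and the Meis1 share of 5.61% came without Paro/Neo replicate 2. The values of 15764, 39.7% and 6745 came without control replicate 1, which lets in the regions of PN2 alone by construction. The promoter share was 78.0% within 2 kb, 81.9% within 5 kb and 78.4% with all annotated genes. Chosen after seeing the data, it was 61.3% with the promoter table alone, where 4395 genes have no start, and 71.9% by the region's centre.

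The log2 Meis1 difference between Paro/Neo and control turned to 0.0024 with the second-replicate lists exchanged and to 0.20 at equal list length; without each library in turn it ran from −1.49 to −1.33. With the replicate number as a block it was −1.41 (exact permutation p = 0.5, the smallest 2 pairs allow). The labels do not say that numbers pair the libraries. Of the 12 lists at 2 times the share over all genes, 6 were among the 10 with PN2 cut, 10 among the 10 by gene body and 8 among the 13 with −log10 q of 2. Unknown depth limits every statement on an absent peak.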

Other observations

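Gene families read from the symbols were chosen after the lists were seen. Their genes with a kept region within 1 kb of the start were set against 12.4% over all protein-coding genes. Those with any Hoxb13 region there were set against 36.2%. The tRNA synthetase genes, which charge tRNAs with amino acids, had 7 of 19 (36.8%), and 15 of 19 (78.9%) with any Hoxb13 region. Core histone genes of the clusters had 11 of 57 (19.3%), and 41 of 57 (71.9%) with any Hoxb13 region, where near-identical copies make the counts uncertain. Nearer to 12.4%, zinc finger genes named Zfp had 58 of 397 (14.6%), ubiquitin-specific peptidases 9 of 56 (16.1%) and ligases named Rnf or Trim 23 of 151 (15.2%). DEAD- and DEAH-box helicases had 8 of 53 (15.1%) and solute carriers 39 of 375 (10.4%). With any Hoxb13 region these 5 families had, in the same order, 42.8%, 69.6%, 47.0%, 49.1% and 33.6%. Olfactory receptors had 0 of 1110, vomeronasal receptors 0 of 355 and keratins 0 of 53, and any Hoxb13 region lay at the start of 0, 0 and 1 of them.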
